A study of Homo sapiens with 6 samples.

Results

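Alcohol, aldehyde, aldo-keto and short-chain dehydrogenases were followed in Huh7 cells with and without silencing of SETD5. Members were taken by symbol from the deposited table: ADH followed by a digit, ALDH, AKR, DHRS, RDH followed by a digit, HSD11B and HSD17B. Such a symbol was carried by 65 of the 14200 genes listed, and the 58 with a mean of at least 1 CPM (read counts scaled to the size of each library) over the 6 libraries were kept. They comprised 5 ADH, 16 ALDH, 9 AKR, 10 DHRS, 5 RDH, 2 HSD11B and 11 HSD17B genes. Besides protein-coding genes the symbols took in DHRS4-AS1, an antisense RNA, and HSD17B7P2, a pseudogene. The other 7 genes (ADH4, AKR7L, DHRS2, DHRS4L1, RDH12, RDH16 and HSD17B1) had means of 0.403 to 0.641 CPM and were not tested. No member lay between 0.641 CPM and the limit, and HSD11B1L was the nearest inside it at 1.27 CPM.

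Huh7 is an established human hepatocellular carcinoma line, grown here in serum-supplemented DMEM. The control group had 3 libraries labelled as control, and the knockdown group had 3 libraries of cells treated with siRNA against SETD5, a SET-domain chromatin protein. RNAiMAX transfection is given for all 6, but neither the siRNA sequences nor what the controls received is stated. Separate cultures are not recorded for replicates. The p-values therefore reflect only how far these libraries scatter, and that scatter could be technical. SETD5 itself was at 212, 210 and 202 CPM in the control libraries and at 136, 140 and 138 CPM in the knockdown libraries. Its mean fell to 0.664 times the control (log2 fold change -0.59, SE 0.032, limma adjusted p = 1.15e-17). An exact two-sided permutation test of 3 against 3 libraries cannot give a p under 0.1, and SETD5 gave that value.

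The enzymes studied here move electrons between NAD or NADP cofactors and alcohol or carbonyl groups. In liver, ADH enzymes oxidize ethanol and retinol to aldehydes, and ALDH enzymes carry aldehydes on to acids. Aldo-keto reductases mostly work in the other direction with NADPH, on sugars, lipid aldehydes and steroid ketones. The DHRS, RDH, HSD11B and HSD17B families are short-chain dehydrogenases that act on retinoids, steroids, sterols and fatty acyl chains, and several of them are known more for lipid metabolism than for the hormone in their name.

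Library depth was 14038447 to 17095417 reads, recovered from the deposited values as whole reads. All listed hepatocyte markers were present, with summed levels of 41222 to 42113 CPM in control and 37954 to 38172 CPM in knockdown libraries for 8 of 8 genes, of which 6 fell and ALB rose to 1.07 times the control. Of 6 fibroblast or stellate markers 4 were listed, at a sum of 169 to 178 and 313 to 323 CPM. COL1A2 went from 135 to 282 CPM, COL3A1 rose to 1.97 times and LUM to 1.2 times the control, and PDGFRB fell to 0.722 times. Of 6 immune markers 4 were listed, at 261 to 287 and 629 to 707 CPM, where LYZ went from 260 to 649 CPM and CD14 fell to 0.485 times the control. The leukocyte marker PTPRC did not pass at 1.13 and 1.59 CPM. Of 5 endothelial markers 2 were listed, summing to 0.786 to 1.35 CPM in control and 0.614 to 0.938 CPM in knockdown libraries, with overlap. The hepatocyte, fibroblast and immune sums moved with the group, and their part in the results below was not tested. All 6 libraries are of the Huh7 line, and LYZ and COL1A2 made up most of the immune and fibroblast sums. In bulk RNA, a change in the share of cells that express a gene and a change per cell cannot be told apart.

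Of the 58 members, 16 rose and 24 fell after knockdown at a limma adjusted p under 0.05, and 18 did not pass. Among all 12865 tested genes 25.7% rose and 26.5% fell. The members' shares were 27.6% and 41.4%, so the share that rose was close to that of all genes and the share that fell was above it. The median log2 change was -0.13 for the members and -0.00 for all tested genes, and the median absolute change was 0.28 against 0.16. Control and knockdown values did not overlap in 43 of 58 members, beside 57.3% of all tested genes. With TREAT, the limma test against a minimum change of 1.2-fold, 7 members were higher and 7 lower, beside 4.97% and 6.42% of all genes. The rises were ADH1A, ADH1B, ADH1C, ALDH1A1, AKR1C1, AKR1C2 and HSD17B14. The falls were ALDH5A1, ALDH8A1, ALDH4A1, ALDH6A1, DHRS4, DHRS4L2 and HSD17B11. At least 2-fold changes on the log2(CPM + 1) scale were found for 4 members that rose (ADH1A, ADH1B, ADH1C and ALDH1A1) and for ALDH5A1, which fell, where all genes had 0.653% higher and 0.676% lower. After quantile normalization 4 rather than 5 members were past 2-fold, with ALDH1A1 at 0.98. No set test was made, and nothing particular to the families is read from these counts.

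**Figure D1:**
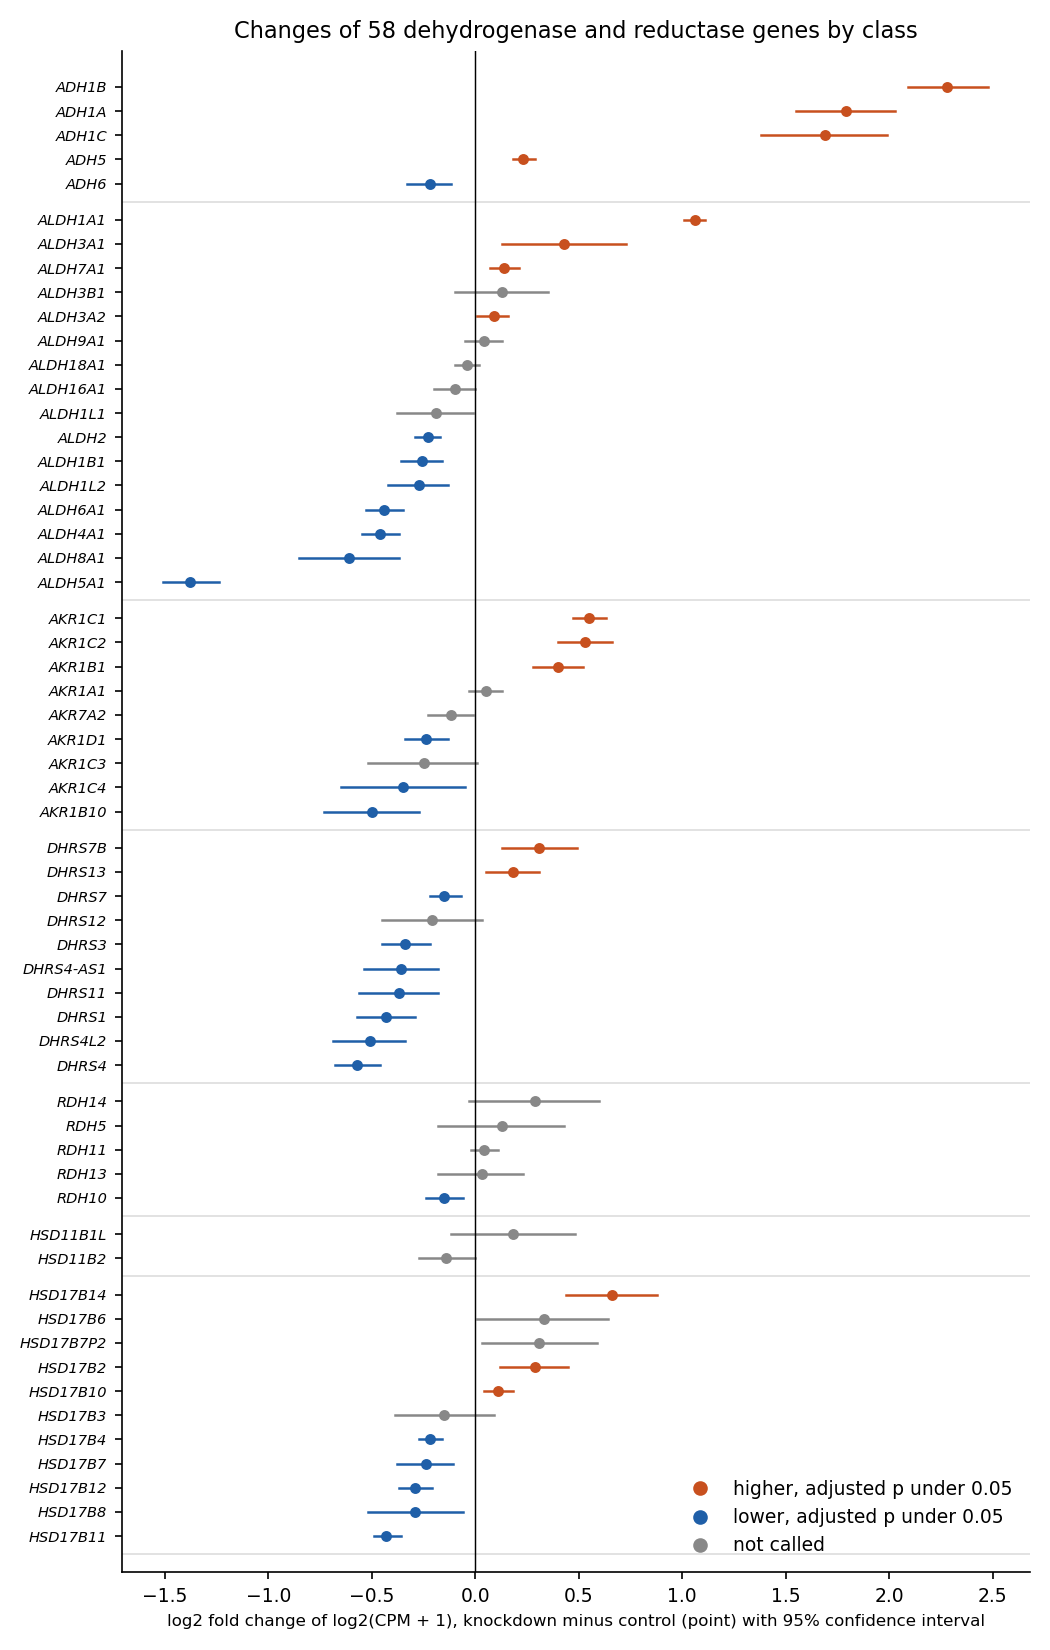
Log2 fold change of log2(CPM + 1), knockdown minus control, for the 58 members in order of change within their class (ADH, ALDH, AKR, DHRS, RDH, HSD11B, HSD17B from top to bottom); points are limma estimates from 3 libraries per group and lines are 95% confidence intervals. ADH1A, ADH1B, ADH1C and ALDH1A1 stand right of 1 and ALDH5A1 left of -1, and 53 members lie between.

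The class I alcohol dehydrogenases ADH1A, ADH1B and ADH1C, which encode the subunits of the main ethanol-oxidizing enzyme of adult liver, all rose. Their start regions are shown first, because the 3 genes are neighbours, copies of each other and rose together. Each sequence spans 250 bases before to 50 bases after the gene start in RefSeq (GRCh38.p14), minus strand, 5′ to 3′: ADH1A at chr4:99290936-99291235, ADH1B at chr4:99321352-99321651 and ADH1C at chr4:99352697-99352996. Capitals mark GGGTGTGGC, a CACCC-type box, and CACGTG, an E-box, both searched on both strands.
ADH1A: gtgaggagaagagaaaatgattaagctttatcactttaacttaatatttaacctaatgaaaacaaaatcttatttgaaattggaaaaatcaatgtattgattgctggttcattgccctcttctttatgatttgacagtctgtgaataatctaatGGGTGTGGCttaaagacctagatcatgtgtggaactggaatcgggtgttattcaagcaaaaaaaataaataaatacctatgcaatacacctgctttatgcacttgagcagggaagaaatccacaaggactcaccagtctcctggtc
ADH1B: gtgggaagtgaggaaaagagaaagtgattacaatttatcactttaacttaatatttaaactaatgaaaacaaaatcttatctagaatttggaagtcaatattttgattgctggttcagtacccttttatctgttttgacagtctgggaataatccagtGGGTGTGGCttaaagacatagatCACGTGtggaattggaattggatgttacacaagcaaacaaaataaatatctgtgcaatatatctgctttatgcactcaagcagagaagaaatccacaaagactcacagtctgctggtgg
ADH1C: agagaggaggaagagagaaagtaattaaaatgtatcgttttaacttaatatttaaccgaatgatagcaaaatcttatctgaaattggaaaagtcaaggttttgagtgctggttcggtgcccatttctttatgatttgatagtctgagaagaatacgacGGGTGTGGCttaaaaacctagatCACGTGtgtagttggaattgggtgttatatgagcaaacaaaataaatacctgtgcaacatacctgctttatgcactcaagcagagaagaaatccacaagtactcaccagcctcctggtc

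The 3 start regions were 81.3% to 82.2% identical in global alignment, against 49.1% for ADH1B and ADH6 and 38.9% for ADH1B and ADH5. GGGTGTGGC, a box chosen after the sequences were read, began 96 bases before the start of ADH1A and 92 bases before those of ADH1B and ADH1C. It was in 0.954% of the 35116 start regions of the same length in the table and in none of those of ADH4, ADH5 and ADH6. CACGTG began 69 bases before the starts of ADH1B and ADH1C and was not found in the window of ADH1A. It was in 7.26% of all start regions. These matches describe letters and not binding.

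ADH1B was at 5.21, 3.90 and 3.72 CPM in the control libraries and at 22.6, 24 and 27.2 CPM in the knockdown libraries. Every knockdown value was thus above every control value. The means were 4.28 ± 0.815 and 24.6 ± 2.35 CPM (SD, n = 3 per group), a ratio of 5.75, with a log2 fold change of 2.28 (SE 0.097, limma adjusted p = 1.07e-20). By fold change on the log2(CPM + 1) scale, which lowers the changes of genes with low levels, ADH1B ranked 2 from the top among the 12865 tested genes.

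ADH1A was at 2.40, 1.88 and 1.64 CPM in the controls and at 8.38, 9.51 and 9.87 CPM after knockdown, again without overlap. Its mean rose to 4.69 times the control, with a log2 fold change of 1.79 (SE 0.118, limma adjusted p = 2.55e-15). ADH1C was at 0.644, 0.279 and 0.857 CPM in the controls, which is 4 to 12 reads per library, and at 3.75, 4.85 and 3.71 CPM after knockdown, which is 60 to 79 reads. The groups did not overlap, and the mean rose to 6.91 times the control with a log2 fold change of 1.69 (SE 0.151, limma adjusted p = 8.35e-12). ADH1C had a control mean of 0.593 CPM and was tested only because of its knockdown level, so it could not have passed the limit without being higher there. The log2(CPM + 1) scale understates changes at such levels. With a pseudocount of 0.1 the log2 fold changes were 2.19 for ADH1A, 2.51 for ADH1B and 2.69 for ADH1C.

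Reads of the 3 genes can be assigned to the wrong copy. Their coding sequences were 93.9% to 95.6% identical, and 18.9% (ADH1A), 34.3% (ADH1B) and 24.6% (ADH1C) of their 50-base words also occurred in a transcript of another gene of these families. The split between the copies is therefore uncertain. The sum of the 3 genes does not depend on that split among them: it was 8.26, 6.06 and 6.22 CPM in the controls and 34.7, 38.4 and 40.7 CPM after knockdown, a ratio of 5.54.

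The other tested alcohol dehydrogenases moved little. ADH5, the glutathione-dependent formaldehyde dehydrogenase found in most tissues, was at 292, 293 and 290 CPM in the controls and 337, 348 and 345 CPM after knockdown. It rose to 1.18 times the control (log2 fold change 0.23, SE 0.028, limma adjusted p = 6.71e-09). ADH6, the class V enzyme, was at 39.5, 42.3 and 40.6 CPM and then at 35.1, 35.3 and 34.0 CPM, a fall to 0.853 times the control (log2 fold change -0.22, SE 0.051, limma adjusted p = 0.000391). Neither pair of groups overlapped. ADH4, the class II enzyme, was below the limit at 0.606 CPM in the control and 0.676 CPM after knockdown, 6 to 13 reads per library, and was not tested. Neither ADH5 nor ADH6 shared a 50-base word with another kept member, ADH4 or ADH7. Family genes and pseudogenes outside the compared set were not checked.

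**Figure D2:**
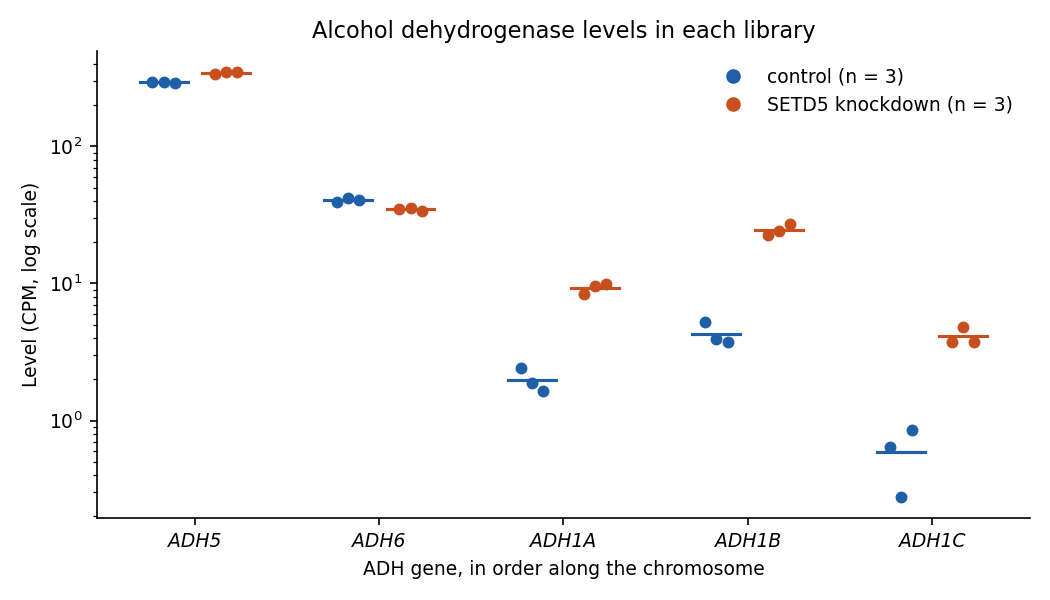
Level in CPM (log axis) of the 5 tested alcohol dehydrogenases in each library, in chromosomal order; points are the 3 control and 3 knockdown libraries and short lines are group means. For each of ADH1A, ADH1B and ADH1C the knockdown points lie above all control points of the same gene, at 3.71 CPM or more. ADH5 and ADH6 shift by less than 1.2-fold.

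In RefSeq order the tested genes of this cluster run ADH5, LOC100507053, ADH6, ADH1A, ADH1B and ADH1C. LOC100507053, a locus within the cluster, averaged 3.26 CPM in the controls and 3.75 CPM after knockdown, without a call (log2 fold change 0.16, limma adjusted p = 0.284). Of the 4 nearest tested genes before the cluster, TSPAN5 rose by 0.63 on the log2 scale (limma adjusted p = 0.000196) and RAP1GDS1 by 0.15 (0.0449). EIF4E and METAP1 did not pass, at 0.01 and 0.08. Of the 4 after it, LAMTOR3 rose by 0.28 (limma adjusted p = 5.96e-05). MTTP, which loads lipid onto apolipoprotein B, fell by 0.28 (2.13e-11). TRMT10A and DNAJB14 did not pass, at 0.09 and 0.02. None of the 8 flanking genes changed as much as any of the 3 class I genes.

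Among the aldehyde dehydrogenases 4 of 16 rose, 7 fell and 5 did not pass. These shares of 25% and 43.8% stand beside 25.7% and 26.5% of all tested genes. ALDH1A1, the cytosolic enzyme that makes retinoic acid from retinaldehyde, was at 2727, 2833 and 2726 CPM in the controls and at 5601, 5907 and 5764 CPM after knockdown. Its values were tight within each group and far apart between them. The mean rose from 2762 ± 61.2 to 5757 ± 153 CPM (SD, n = 3 per group), 2.08 times the control, with a log2 fold change of 1.06 (SE 0.026, limma adjusted p = 9.5e-28). The rise rests on 38152 to 96378 reads per library. No 50-base word of its coding sequence occurred in another kept member, and family genes outside the compared set were not checked. The summed CPM of the class went from 3980 ± 64.6 to 6877 ± 166 CPM. That step was smaller than the step of ALDH1A1 alone, so the other genes of the class did not rise in sum.

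The start region of ALDH1A1 is shown because it was the only member outside the ADH genes that rose at least 2-fold. It lies at chr9:72953004-72953303, minus strand (RefSeq, GRCh38.p14), again 250 bases before to 50 after the start, with CCAAT in capitals.
ALDH1A1: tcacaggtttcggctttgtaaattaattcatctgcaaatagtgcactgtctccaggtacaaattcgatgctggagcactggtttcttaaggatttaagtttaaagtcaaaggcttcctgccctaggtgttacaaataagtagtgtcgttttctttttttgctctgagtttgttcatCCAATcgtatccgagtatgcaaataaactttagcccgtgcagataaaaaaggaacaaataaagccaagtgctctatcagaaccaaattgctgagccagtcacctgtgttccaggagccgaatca

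CCAAT, searched on both strands, began 74 bases before this start and was in 34.6% of all start regions of that length, those of ADH1A, ADH1B and ADH1C included. The tested genes next to ALDH1A1 were ZFAND5, which rose by 0.16 on the log2 scale (limma adjusted p = 2.93e-05), and the annexin ANXA1, which rose by 0.16 (limma adjusted p = 0.0446). Further out GDA, guanine deaminase, rose by 0.49 (limma adjusted p = 4.91e-10), while LINC01504, TRPM6 and C9orf41 fell by 0.41, 0.28 and 0.31.

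ALDH5A1, succinic semialdehyde dehydrogenase of the GABA breakdown route, had the strongest fall of the 58 members. It was at 39.6, 39.9 and 35.8 CPM in the controls and at 14.6, 14.9 and 13.2 CPM after knockdown, so that the highest knockdown value was below the lowest control value by more than the spread within either group. The mean fell from 38.4 ± 2.30 to 14.2 ± 0.907 CPM (SD, n = 3 per group), 0.369 times the control, with a log2 fold change of -1.38 (SE 0.065, limma adjusted p = 2.47e-19). It ranked 16 from the bottom among all tested genes. Next to it along the chromosome, GPLD1 and TDP2 did not pass (log2 fold changes -0.03 and 0.01). Further out DCDC2 and the acyl-CoA thioesterase ACOT13 fell by 0.75 and 0.49 (limma adjusted p = 1.59e-11 and 1.57e-11), and CASC15 and C6orf62 rose by 0.66 and 0.16.

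The other 6 aldehyde dehydrogenases that fell changed less. ALDH4A1, which oxidizes the proline breakdown product to glutamate, was at 80.9, 76.5 and 84.4 CPM in the controls and at 60.5, 58.5 and 55.8 CPM after knockdown, 0.723 times the control (log2 fold change -0.46, SE 0.043, limma adjusted p = 3.16e-11). ALDH6A1, methylmalonate semialdehyde dehydrogenase of valine breakdown, was at 58, 57.9 and 57.1 CPM and then at 43.4, 41.7 and 41.6 CPM, 0.733 times the control (log2 fold change -0.44, SE 0.045, limma adjusted p = 2.49e-10). ALDH8A1, an enzyme of tryptophan breakdown, was at 4.45, 4.46 and 4.86 CPM and then at 2.56, 2.64 and 2.81 CPM, 0.582 times the control (log2 fold change -0.61, SE 0.118, limma adjusted p = 4.85e-05). None of these 3 genes overlapped between groups. The mitochondrial acetaldehyde dehydrogenase ALDH2 was at 267, 271 and 276 CPM and then at 227, 237 and 228 CPM, a fall to 0.852 times the control (log2 fold change -0.23, SE 0.029, limma adjusted p = 3.14e-08). The groups were again apart, but the change was smaller than 1.2-fold. ALDH1B1, a mitochondrial relative, fell to 0.832 times and ALDH1L2, the mitochondrial formyltetrahydrofolate dehydrogenase, to 0.818 times the control.

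The remaining rises of the class were small or rested on few reads. ALDH3A1, which clears aromatic and lipid aldehydes, was at 1.05, 0.836 and 1.14 CPM, 12 to 18 reads, in the controls and at 1.5, 1.72 and 1.91 CPM, 24 to 32 reads, after knockdown. It rose to 1.69 times the control (log2 fold change 0.43, SE 0.148, limma adjusted p = 0.0144), and the limma call ended without control replicate 2 (adjusted p = 0.0577) or knockdown replicate 3 (0.067). ALDH7A1, of lysine breakdown, rose to 1.10 times the control (limma adjusted p = 0.00115, but 0.057 when no mean-variance trend was fitted). ALDH3A2, the fatty aldehyde dehydrogenase, was called at 1.06 times the control with overlapping groups (limma adjusted p = 0.0416). That call ended without control replicate 1 (0.102) or 3 (0.28) and without knockdown replicate 1 (0.229) or 2 (0.168). ALDH9A1, ALDH18A1 (proline synthesis), ALDH3B1, ALDH16A1 and ALDH1L1 (the cytosolic formyltetrahydrofolate dehydrogenase) did not pass, at 0.86 to 1.10 times the control. ALDH1L1 passed as lower without control replicate 1 (limma adjusted p = 0.039) or knockdown replicate 3 (0.0445).

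**Figure D3:**
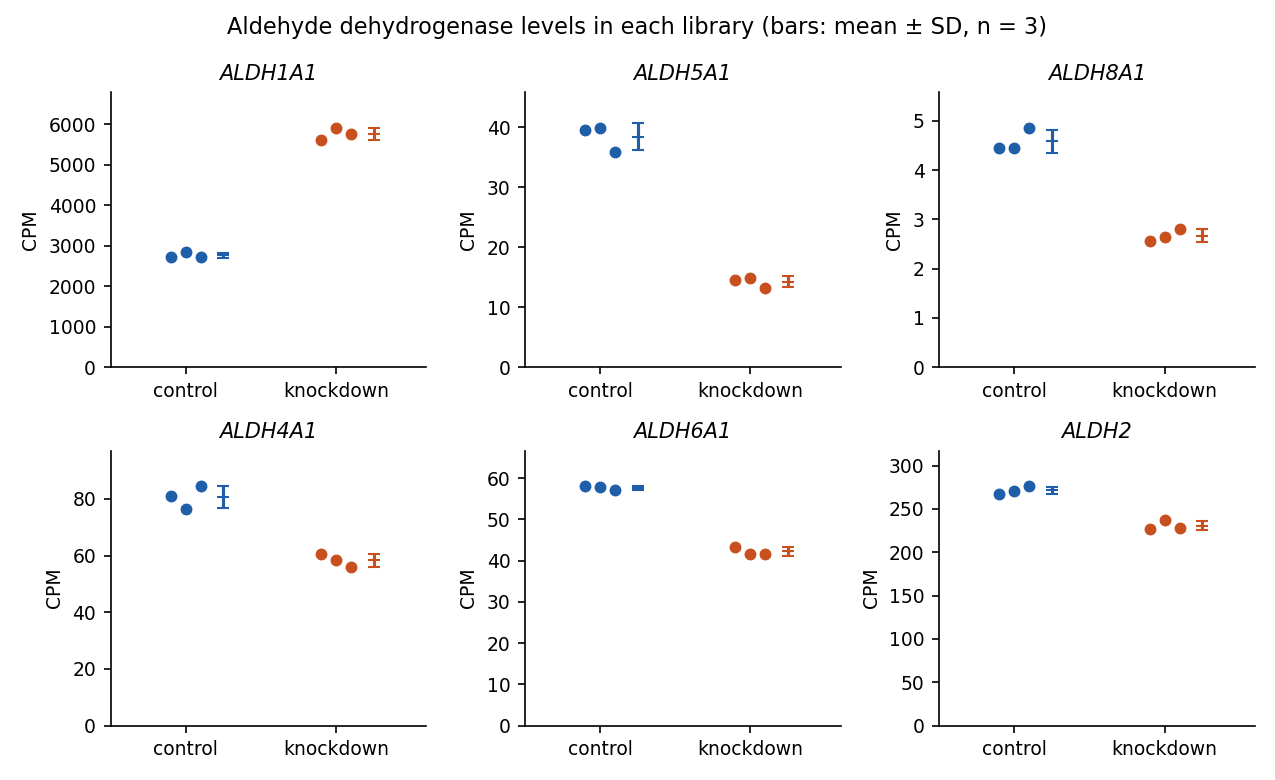
Level in CPM of 6 aldehyde dehydrogenases in each library, on axes that start at 0; points are libraries and the marks beside them are group means ± SD (n = 3). ALDH1A1 goes from 2762 to 5757 CPM and ALDH5A1 from 38.4 to 14.2 CPM, and the other 4 fall with smaller steps.

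The aldo-keto reductases split, with 3 of 9 higher, 3 lower and 3 not passing, beside 25.7% higher and 26.5% lower among all tested genes. AKR1C1, which reduces progesterone and other steroid ketones, was at 335, 309 and 364 CPM in the controls and at 491, 458 and 529 CPM after knockdown. The lowest knockdown value was above the highest control value, and the mean rose to 1.47 times the control (log2 fold change 0.55, SE 0.040, limma adjusted p = 4.89e-14). AKR1C2, a 3-alpha-hydroxysteroid dehydrogenase, was at 17.6, 18.5 and 17.8 CPM and then at 25.8, 26.5 and 26.9 CPM, also 1.47 times the control (log2 fold change 0.53, SE 0.064, limma adjusted p = 8.17e-09). The equal ratios cannot be taken as independent, since the coding sequences were 98.0% identical and 53.7% and 57.1% of their 50-base words occurred in another gene of these families. AKR1B1, the aldose reductase that turns glucose into sorbitol, was at 21.8, 21.8 and 24.6 CPM and then at 30.2, 30.7 and 30.0 CPM, 1.33 times the control (log2 fold change 0.40, SE 0.061, limma adjusted p = 9.19e-07).

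AKR1B10, a retinaldehyde and lipid aldehyde reductase often raised in liver tumours, went the other way from AKR1B1. It was at 4.80, 5.08 and 5.79 CPM in the controls and at 3.31, 3.50 and 3.35 CPM after knockdown, with no overlap. The mean fell to 0.648 times the control (log2 fold change -0.50, SE 0.114, limma adjusted p = 0.000358). Their coding sequences were 76.1% identical. No 50-base word of AKR1B1 occurred in another gene of the compared set, while 19.8% of those of AKR1B10 did. AKR1D1, the 5-beta-reductase of bile acid synthesis, fell to 0.845 times the control (limma adjusted p = 0.000311). AKR1C4, the mainly hepatic member of its group, was called lower at 0.710 times the control on 17 to 41 reads per library (limma adjusted p = 0.0462). The call ended in 5 of the 6 fits that left out a library: without control replicate 1 (adjusted p = 0.102), 2 (0.103) or 3 (0.0614) and without knockdown replicate 1 (0.355) or 3 (0.0546). The log2 fold change of AKR1C4 was -0.35, but -0.18 without knockdown replicate 1 and -0.50 without knockdown replicate 2. Under median centring it had an adjusted p of 0.0537 and with no mean-variance trend one of 0.0973. AKR1C3 did not pass at 0.784 times the control (limma adjusted p = 0.108, and 0.0426 without control replicate 2). AKR1A1, the general aldehyde reductase, was at 117, 111 and 122 CPM and then at 118, 117 and 127 CPM, with overlapping groups and no call (log2 fold change 0.05, 95% confidence interval -0.03 to 0.13). AKR7A2 did not pass at 0.918 times the control (limma adjusted p = 0.0669, and 0.0276 without knockdown replicate 3).

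Along the AKR1C cluster the changes ran 0.55 for AKR1C1, 0.53 for AKR1C2, -0.25 for AKR1C3 and -0.35 for AKR1C4 in log2 fold change. The nearest tested gene before it, the transcription factor KLF6, rose by 0.41 (limma adjusted p = 2.14e-08), and the nearest after it, NET1, rose by 0.28 (3.19e-08). Further out FAM208B rose by 0.15 (limma adjusted p = 0.00161) and PITRM1 fell by 0.35 (1.47e-06), while WDR37, LOC105376360, ASB13 and GDI2 did not pass.

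The DHRS genes fell in 7 of 10 cases and rose in 2, where 26.5% of all tested genes fell and 25.7% rose. Of the 7 falls, 3 came from the DHRS4 locus. DHRS4, a peroxisomal NADPH-dependent carbonyl and retinal reductase, was at 40.8, 40 and 38.9 CPM in the controls and at 25.8, 27.1 and 26.8 CPM after knockdown. The groups were well apart, and the mean fell to 0.666 times the control (log2 fold change -0.57, SE 0.054, limma adjusted p = 3.39e-11). Its neighbouring copy DHRS4L2 was at 14.2, 14.5 and 13.6 CPM and then at 10.3, 10.1 and 8.49 CPM, 0.681 times the control (log2 fold change -0.51, SE 0.086, limma adjusted p = 4.36e-06). Of their 50-base words 52.9% and 37.9% occurred in another gene of these families, so reads may be exchanged between them. DHRS4-AS1, transcribed antisense from the same locus, fell to 0.759 times the control (log2 fold change -0.36, limma adjusted p = 0.000825). The kit keeps strand, but the sources used here do not say whether counting used strand, so reads of DHRS4 and DHRS4-AS1 may not be told apart. These 3 falls are therefore not 3 independent measurements.

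DHRS1, an endoplasmic reticulum enzyme, was at 21.4, 21.5 and 23.2 CPM and then at 16.4, 15.6 and 16.3 CPM, 0.732 times the control (log2 fold change -0.43, SE 0.068, limma adjusted p = 2.12e-06). DHRS3, which reduces retinaldehyde back to retinol, fell to 0.785 times and DHRS11 to 0.747 times the control. DHRS7 was at 104, 105 and 100 CPM and then at 92.9, 95.7 and 91.1 CPM. That was a fall to 0.903 times the control without overlap (log2 fold change -0.15, SE 0.037, limma adjusted p = 0.000999). DHRS7B, a peroxisomal enzyme of ether lipid synthesis, rose to 1.26 times the control. DHRS13 rose to 1.14 times, a limma call that ended without control replicate 1 (adjusted p = 0.084) or 2 (0.0516) or knockdown replicate 1 (0.0665). DHRS12 did not pass at 0.843 times the control (limma adjusted p = 0.141). Of the flanking genes of the DHRS4 cluster, AP1G2 and NGDN on one side rose by 0.16 and 0.20 on the log2 scale (limma adjusted p = 0.00969 and 0.000457), with THTPA and ZFHX2 not passing. On the other side LRRC16B and NRL did not pass (-0.14 and -0.18), and PCK2 and DCAF11 further out fell by 0.21 and 0.43 (2.73e-05 and 3.06e-13).

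**Figure D4:**
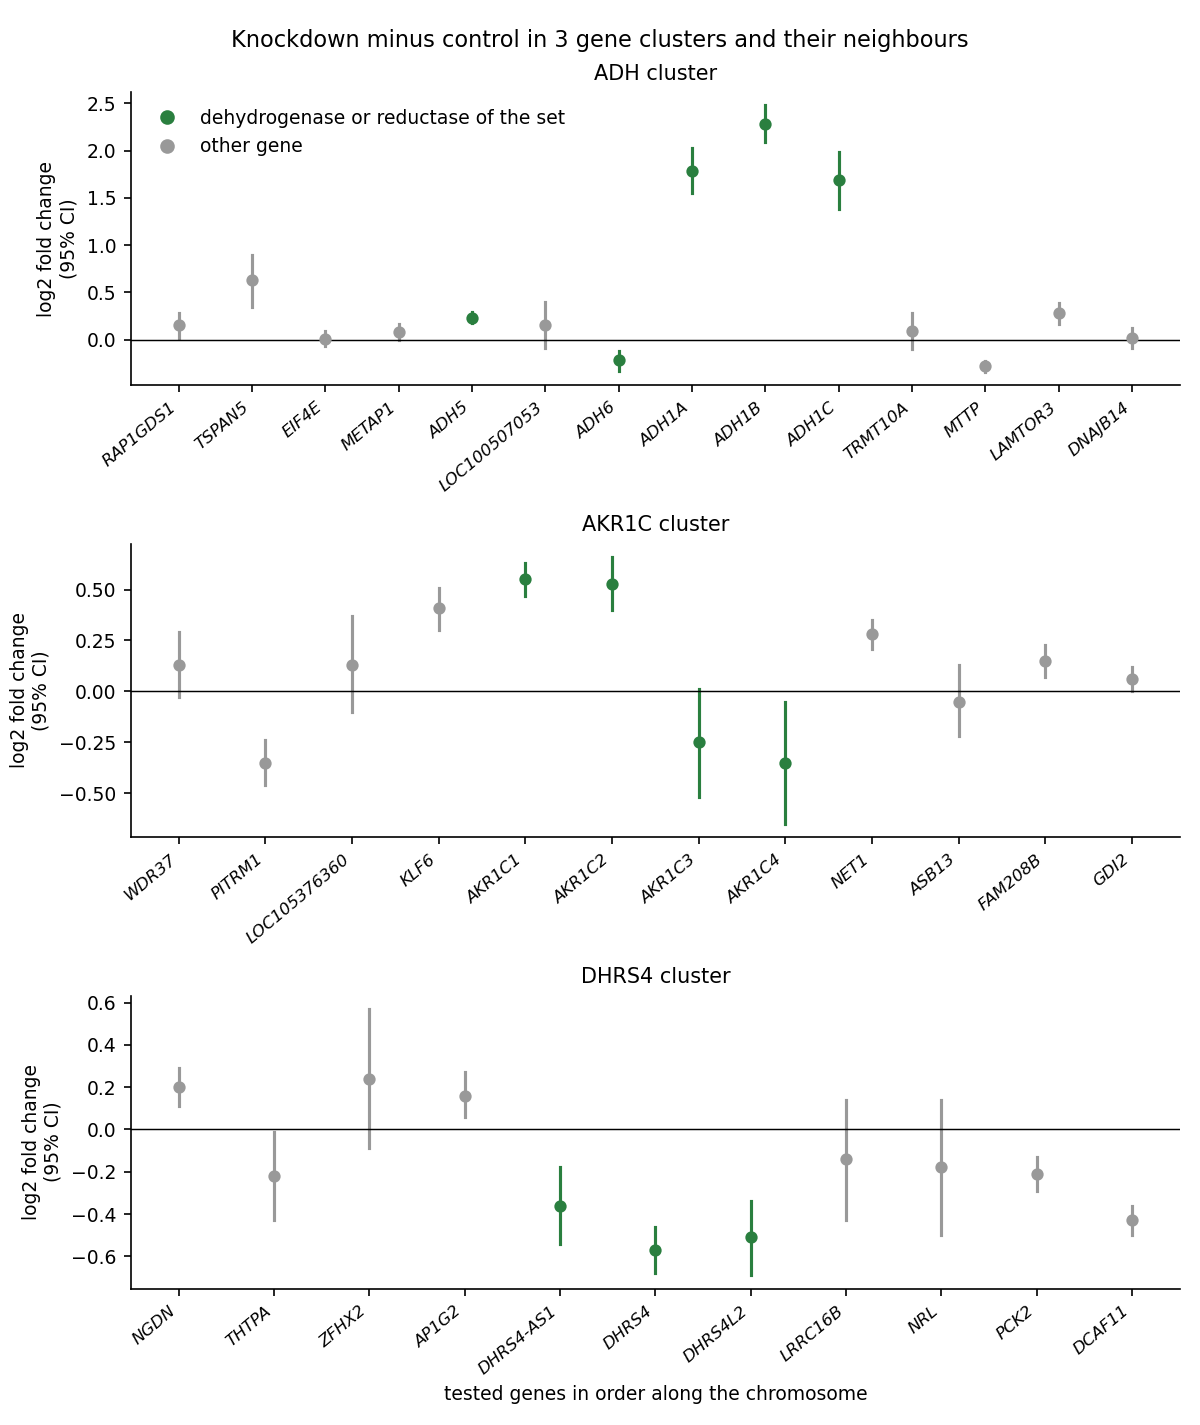
Log2 fold change with 95% confidence interval for the tested genes of the ADH, AKR1C and DHRS4 clusters and the 4 nearest tested genes on each side, in RefSeq order; green marks members and grey other genes. ADH1A, ADH1B and ADH1C stand above all their neighbours, AKR1C1 and AKR1C2 are above 0 with AKR1C3 and AKR1C4 below it, and the 3 DHRS4 genes are below 0.

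Of the 5 retinol dehydrogenases 1 fell and 4 did not pass, beside 26.5% of all tested genes that fell. RDH10, which oxidizes retinol to retinaldehyde, was at 62.2, 61.2 and 58.3 CPM in the controls and at 54.1, 53.2 and 56.2 CPM after knockdown. The groups were apart by a small step, and the mean fell to 0.900 times the control (log2 fold change -0.15, SE 0.044, limma adjusted p = 0.0043). RDH11, a retinaldehyde reductase, was at 171, 176 and 180 CPM and then at 183, 176 and 184 CPM. Its groups overlapped, and the 95% confidence interval of the log2 change ran from -0.02 to 0.11. RDH5, RDH13 and RDH14 did not pass at 1.03 to 1.42 times the control, with 11 to 41 reads per library for RDH5 and RDH14.

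Neither HSD11B gene passed. HSD11B2, which inactivates cortisol, was at 20.7, 20.4 and 20.7 CPM in the controls and at 19.7, 18.5 and 17.8 CPM after knockdown (log2 fold change -0.14, SE 0.067, limma adjusted p = 0.0871). Its groups did not overlap, and a fit with no mean-variance trend gave an adjusted p of 0.0462. HSD11B1L was at 0.995, 1.04 and 1.36 CPM and then at 1.38, 1.47 and 1.38 CPM, on 15 to 24 reads per library (limma adjusted p = 0.327).

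Of the 11 HSD17B genes 3 rose, 5 fell and 3 did not pass. The shares of 27.3% and 45.5% stand beside 25.7% and 26.5% of all tested genes. HSD17B14 was at 3.86, 4.67 and 3.86 CPM in the controls and at 6.44, 7.06 and 7.83 CPM after knockdown. All knockdown values were higher, and the mean rose to 1.72 times the control (log2 fold change 0.66, SE 0.110, limma adjusted p = 4.06e-06). HSD17B2, which oxidizes estradiol and testosterone, rose to 1.23 times (limma adjusted p = 0.00364, and 0.0656 without control replicate 1). HSD17B10, a mitochondrial enzyme of isoleucine breakdown that is also a subunit of mitochondrial RNase P, rose to 1.08 times the control.

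HSD17B11, a lipid droplet enzyme, was at 234, 242 and 239 CPM in the controls and at 182, 172 and 178 CPM after knockdown. Its mean fell to 0.744 times the control with no overlap (log2 fold change -0.43, SE 0.031, limma adjusted p = 3.36e-14). HSD17B4, the peroxisomal bifunctional protein of fatty acid and bile acid side-chain oxidation, was at 304, 314 and 313 CPM and then at 267, 269 and 265 CPM, 0.860 times the control (log2 fold change -0.22, SE 0.028, limma adjusted p = 4.81e-08). HSD17B12, which reduces ketoacyl chains in fatty acid elongation, fell to 0.818 times, and HSD17B7, an enzyme of cholesterol synthesis, to 0.841 times the control. HSD17B8, of mitochondrial fatty acid synthesis, was called at 0.782 times the control (limma adjusted p = 0.0322). That call ended without control replicate 1 (0.0666) or 2 (0.107) and without knockdown replicate 1 (0.0642) or 3 (0.131). HSD17B6 and the pseudogene HSD17B7P2 did not pass at 1.48 and 1.35 times the control, on 10 to 46 reads per library. HSD17B6 passed without control replicate 1 (limma adjusted p = 0.0346) and HSD17B7P2 without control replicate 3 (0.0201) or knockdown replicate 3 (0.048). HSD17B7P2 also passed under median centring (0.0475) and with no mean-variance trend (0.0414). HSD17B3 did not pass at 0.876 times the control. Of the 50-base words of HSD17B7, 52.1% occurred in another gene of these families.

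**Figure D5:**
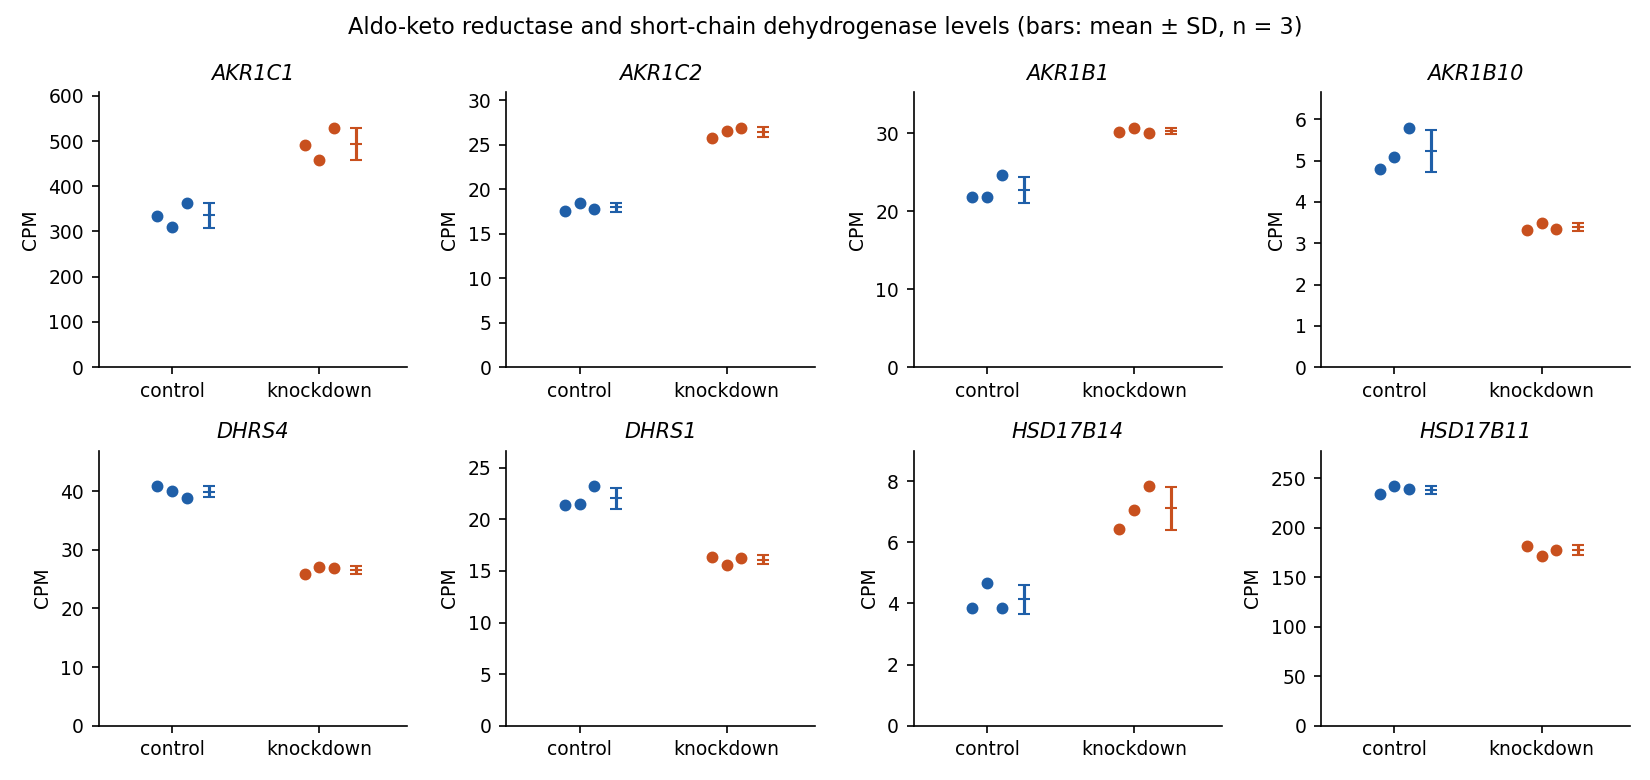
Level in CPM of 4 aldo-keto reductases and 4 short-chain dehydrogenases in each library, on axes that start at 0; points are libraries and the marks beside them are group means ± SD (n = 3). AKR1C1, AKR1C2, AKR1B1 and HSD17B14 are higher and AKR1B10, DHRS4, DHRS1 and HSD17B11 lower in all 3 knockdown libraries than in all 3 control libraries.

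A short word of the 3' UTR was counted in the members because it went with lower levels over the whole table. The members are part of that table, so their counts are not a separate observation. Of 11529 tested genes with a 3' UTR in GENCODE 29, 3302 held GCACCT, and 34.5% of these fell and 24.7% rose. Of the 8227 without it 24.2% fell and 27.9% rose. Genes with the word had longer 3' UTRs, with medians of 2460 and 779 bases. Of 56 members with a 3' UTR, 17 held GCACCT: 9 of them fell and 4 rose, while 14 of the 39 others fell and 12 rose. Median 3' UTR lengths of the members with and without it were 877 and 378 bases. Among those that fell, ALDH2 held it 5 times, DHRS7 3 times, and ALDH5A1, DHRS3 and ALDH1L2 2 times each. ALDH6A1, HSD17B11, DHRS11 and AKR1D1 held it 1 time each. The 3' UTR of ALDH2 was the longest among the members with the word, at 7954 bases. The 4 that rose with it were AKR1C1, ADH5, ALDH7A1 and DHRS7B. ALDH3B1, HSD11B2, HSD11B1L and ALDH1L1 held it and did not pass. ADH1A, ADH1B, ADH1C, ALDH1A1, ALDH4A1, ALDH8A1 and DHRS4 did not hold it. The part of this word in any change was not tested.

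Genes that share substrates or cofactors with the members were counted from lists, beside the 25.7% of all tested genes that rose and 26.5% that fell. Of 27 tested short-chain dehydrogenases and reductases outside the named families, 6 rose and 10 fell, with a median log2 change of -0.07. HPGD, which inactivates prostaglandins, rose from 22.9 to 62.3 CPM (2.72 times the control, limma adjusted p = 2.94e-21). The biliverdin reductase BLVRB fell to 0.498 times, the peroxisomal enoyl-CoA reductase PECR to 0.616 times and the ketone body enzyme BDH1 to 0.627 times the control. Of 10 medium-chain relatives 3 rose and 4 fell. SORD, which takes the sorbitol made by AKR1B1 on to fructose, rose from 89.7 to 154 CPM (1.72 times the control, limma adjusted p = 8.01e-20), and VAT1 to 1.31 times.

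Of 13 tested genes of retinoid handling and signalling, 6 rose and 3 fell, with a median of 0.12. CYP26B1, which degrades retinoic acid, rose from 69.0 to 121 CPM (1.75 times the control, limma adjusted p = 9.04e-19). The plasma carrier RBP4 fell from 559 to 368 CPM (0.659 times, limma adjusted p = 2.09e-19). BCO2, a carotenoid-cleaving enzyme, was called higher at 0.77 and 1.6 CPM, on 5 to 16 and 20 to 30 reads. With a control mean under the limit it was tested only because of its knockdown level. FABP5 rose to 1.31 times, and the receptor RXRA to 1.09 times the control. Of 4 tested genes that dispose of ethanol products and formaldehyde outside the ADH and ALDH families, 2 fell and 2 did not pass. The falls were ACSS2, which activates acetate, to 0.747 times and catalase CAT to 0.804 times the control.

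NRF2 is a known activator of AKR1C1 and AKR1B10. Of 22 tested genes for NRF2 and its other targets, 8 rose and 9 fell, with a median of -0.04. NFE2L2, which encodes NRF2, fell from 487 to 387 CPM (0.794 times the control, limma adjusted p = 3.89e-12). ME1 fell to 0.671 and GCLM to 0.720 times, SLC7A11 rose to 1.44 times and NQO1 to 1.08 times the control. Of 10 tested steroid conversion genes 1 rose and 5 fell, with a median of -0.22: aromatase CYP19A1 fell to 0.536 times, the sulfotransferase SULT2A1 to 0.591 times and the glucocorticoid receptor NR3C1 to 0.636 times the control. NAD and NADPH supply genes rose in 5 of 13 and fell in 4, with a median of -0.02. NADK2, the mitochondrial NAD kinase, rose to 1.27 times and NAMPT fell to 0.820 times the control.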

How the data were processed

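RNA sequencing of 6 Huh7 libraries was analysed, with groups taken from the sample titles. Libraries were stranded poly(A) preparations, per the labels' protocols. STAR 2.5.1, R 3.3.0, hg19 and mm10 are named, per the submitters' processing notes, with no role for each. The authors deposited log2 values. In every library 2 to the power of the value minus 1 gave whole multiples of 1 step for 100% of values (within 0.01 of a read), so the unit is log2(CPM + 1), and CPM and reads were recomputed from it. Depth was 14038447 to 17095417 reads, and 3 reads equal 0.176 to 0.214 CPM.

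The 12865 genes averaging 1 CPM or more were tested with limma 3.58.1 in R 4.3.3 on the deposited values, with group as the only term, a mean-variance trend and Benjamini-Hochberg adjustment over all of them (threshold 0.05). Log2 fold changes refer to log2(CPM + 1) and ratios to mean CPM. CPM is not scaled to length, so an order of genes by CPM also reflects transcript length. The code was tested on simulated data. Members and lists were chosen with earlier results of these data known. Values in every library are given for called members with an absolute log2 change of at least 0.4 and for the 2 of highest CPM in each class. From each list other than the markers only called genes of largest change or genes of highest CPM are named. NQO1 is an exception that neither rule selects. Start regions came from RefSeq (GRCh38.p14), which held 45 of 58 members. Coding sequences and 3' UTRs came from 1 GENCODE 29 transcript per gene, aligned with Biopython 1.88. The 50-base words of coding sequences were compared with transcripts carrying the symbols of the 58 members, ADH4, ADH7, AKR7A3, AKR1B15 and DHRS4L1. Other genes and pseudogenes of the families were not compared. Alternatives were another pseudocount, no filter, quantile normalization, median centring, no trend, a replicate block, each library left out and, chosen after seeing the data, voom on recovered reads.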

Additional observations from a re-analysis of the deposited data

How the results depend on the processing

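All 58 member calls were the same with a pseudocount of 0.1, with no filter, after quantile normalization and with voom on recovered reads, which was chosen after seeing the data, although quantile normalization left 4 rather than 5 members past 2-fold (ALDH1A1 at 0.98). The planned count models were not run; voom took their place. With no mean-variance trend 2 rather than 4 ALDH genes were called higher and 1 rather than 0 HSD11B genes lower. AKR1C4 lost its call and HSD17B7P2 gained one, both with no trend and under median centring. The causes were not tested. Leaving out 1 library gave 14 to 16 members higher, 22 to 24 lower and 1 to 2 DHRS genes higher. In every such fit 3 rather than 4 ALDH genes were higher, and 3 to 4 HSD17B genes were. Lower in these fits were 7 to 8 ALDH, 2 to 3 AKR and 4 to 5 HSD17B genes. The log2 change then ran from -0.01 to 0.33 for RDH5 and from -0.08 to 0.10 for RDH13, neither of which was called. Same-numbered libraries did not deviate together (r = -0.011, 0.054 and 0.042 across genes), so the numbers were not taken to pair them; with a replicate block 16 members were higher and 24 lower, and no member's call changed. Depth limits the genes with few reads, such as ADH1C in the controls (4 to 12 reads).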
